A study of Mus musculus with 12 samples.

Results

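Interleukin 15 (Il15), its private receptor chain Il15ra and the common gamma chain Il2rg were followed in RAW264.7 cells, a mouse macrophage line, exposed to CpG DNA and gefitinib. The members were the probes whose gene symbol in the platform's annotation was 1 of these 3 genes. Of 25697 probes, 7 qualified, 3 for Il15 and 4 for Il15ra. No probe carried the symbol Il2rg in the annotation used here, so that chain was not analysed here. The measured members were thus 2 of the 16590 genes named by a probe, and both were among the 8101 genes that passed the detection filter. Il15 was chosen by its values in these same arrays, where it ran against the other cytokine genes in CpG against untreated and in CpG with gefitinib against CpG. Its values in those contrasts are therefore a description and carry no test.

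There were 12 Illumina bead arrays in 4 groups of 3 numbered replicates. Untreated cells received neither agent, another group received gefitinib at 10 µM alone, the next received CpG at 10 µg/ml for 6 h, and the last received gefitinib 1 h ahead of the same CpG stimulus. All cells were of 1 line, grown in serum-containing DMEM. How long the cells without CpG were incubated is not in the labels, nor whether replicates were separate cultures, so the p-values below measure the spread between these samples. CpG is DNA with unmethylated CpG motifs that macrophages sense as microbial, and gefitinib is a tyrosine kinase inhibitor made against the epidermal growth factor receptor. The deposited design asks how CpG with gefitinib differed from CpG alone.

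Macrophages and dendritic cells make Il15 and, as textbook background, hold it on the alpha chain Il15ra, which presents it to neighbouring T and NK cells. Those cells bind the complex through the beta chain Il2rb and the gamma chain Il2rg, which signal through the kinases Jak1 and Jak3 to Stat5a and Stat5b. Transcription of Il15 and Il15ra is known to respond to type I interferon and to interferon regulatory factors such as Irf1.

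The promoter set used here held no window for Il15, so none is shown for it. The promoter windows of Il15ra are shown because interferon-responsive factors, the known inducers of this pair, rose with CpG while the Il15ra groups overlapped. RefSeq (GRCm38.p6) gives 2 windows of 300 bases, each spanning a transcript start, at chr2:11705043-11705342 and chr2:11705462-11705761 on the plus strand. Capitals mark the match to GAAANNGAA, a core of the elements that interferon regulatory factors bind.
Il15ra window 1: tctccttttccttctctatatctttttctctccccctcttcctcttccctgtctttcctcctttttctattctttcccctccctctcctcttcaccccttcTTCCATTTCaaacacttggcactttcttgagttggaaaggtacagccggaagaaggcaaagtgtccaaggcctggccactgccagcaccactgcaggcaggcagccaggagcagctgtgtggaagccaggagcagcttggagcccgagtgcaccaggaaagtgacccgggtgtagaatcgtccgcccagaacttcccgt
Il15ra window 2: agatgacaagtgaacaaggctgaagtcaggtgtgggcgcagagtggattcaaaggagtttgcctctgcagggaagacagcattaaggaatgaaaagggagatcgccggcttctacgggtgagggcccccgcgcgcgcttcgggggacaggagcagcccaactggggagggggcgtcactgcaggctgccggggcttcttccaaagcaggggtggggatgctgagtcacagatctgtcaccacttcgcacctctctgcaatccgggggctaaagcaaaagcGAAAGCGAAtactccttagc
The first window holds the match on the minus strand, at -149 to -141 from the start, so its capitals are the reverse complement. The second holds it on the plus strand, at 31 to 39 after the start, and also holds TGANTCA, an AP-1 motif, at -30 to -24. Searched on both strands, GAAANNGAA was in 8.56% of 32851 promoter windows and TGANTCA in 7.81%. The motifs GGANTTCC (in 4.77% of windows), TTCNNNGAA (8.3%), TATAAA (13.6%) and CCAAT (37.4%) were in neither Il15ra window, and a match of letters is not a site of binding.

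Between 10705 and 11181 probes were detected per array (detection p under 0.05), and the median signal per array was between 107.59 and 130.82. Of 15 macrophage marker genes listed, 13 had a probe and 10 passed the filter, among them Cd14, Lyz2 and Adgre1. Msr1, Mrc1 and Fcer1g did not pass, and Itgam was detected with CpG alone only. Of 18 T and NK cell markers, 3 passed: Cd3d and Klrb1c were near the detection limit and Prf1 was detected on all 12 arrays. The defining lineage markers Cd3e, Cd3g, Cd8a and Ncr1 did not pass, and the mean signal per probe of that list was between 112.522 and 138.333 on the 12 arrays, against 2599.408 to 4391.909 for the macrophage list. These are cells of 1 line in bulk, so fewer cells expressing a gene and less RNA per cell cannot be told apart.

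Il15 was lowest in the cells given CpG alone and was near or above its untreated level when gefitinib preceded CpG. The brightest of its 3 probes, ILMN_2610234, was detected on all 12 arrays. On the log2 scale after background correction and quantile normalization, it read 6.43, 6.37 and 6.31 in untreated cells. It read 6.79, 6.62 and 6.80 with gefitinib alone. With CpG it read 5.15, 5.39 and 6.13. All 3 CpG arrays lay below every array of the other groups, and the third was closest to them. With CpG and gefitinib it read 6.66, 6.66 and 6.75, above all untreated and CpG arrays.

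Group means of that probe ran from 6.74 ± 0.10 (SD, n = 3) with gefitinib alone to 6.69 ± 0.05 with CpG and gefitinib, 6.37 ± 0.06 in untreated cells and 5.56 ± 0.51 with CpG. The first pair in that order differed by less than their spread. CpG against untreated came to -0.82 ± 0.19 (log2 difference ± SE), a 1.76-fold lower level, and CpG with gefitinib against CpG to 1.13 ± 0.19, a 2.19-fold higher level. The effect of CpG with gefitinib present minus its effect without came to 0.77 ± 0.27. The differences in CpG against untreated and in CpG with gefitinib against CpG belong to the contrasts that chose the gene. No test is given for them, nor for the last value, which shares their arrays. Over the 8101 genes, 9.58% were called higher and 14.3% lower by limma (Benjamini-Hochberg adjusted p under 0.05) in CpG against untreated, and 21.3% higher and 14.6% lower in CpG with gefitinib against CpG. The difference between the CpG effects with and without gefitinib was called above 0 for 5.73% of genes and below 0 for 5.59%.

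The second probe, ILMN_2938704, read 5.63, 5.37 and 5.58 in untreated cells and 5.88, 6.14 and 5.70 with gefitinib. It read 4.84, 5.13 and 4.81 with CpG, where only the second array detected it. It read 5.82, 5.69 and 5.91 with CpG and gefitinib. The CpG arrays again lay below all others, and here the third was the lowest of them and not the highest. CpG against untreated was -0.60 ± 0.14 and CpG with gefitinib against CpG was 0.88 ± 0.14.

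The third Il15 probe, ILMN_1219869, lay closest to background and was detected on 8 of 12 arrays. It read 4.99, 5.21 and 5.01 in untreated cells and 4.85, 5.08 and 4.97 with gefitinib. With CpG it read 4.49, 4.67 and 5.15. The third CpG array lay within the untreated range, so those groups overlapped on the log2 scale. With CpG and gefitinib it read 5.21, 5.23 and 5.40, above all CpG arrays. CpG against untreated was -0.30 ± 0.15, and it was -0.16 without the first CpG array and -0.49 without the third. CpG with gefitinib against CpG was 0.51 ± 0.15.

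Across the 12 arrays the 3 Il15 probes correlated with each other at r = 0.82, 0.75 and 0.49, over arrays that share their groups. They are annotated to 1 RefSeq transcript, so they are repeat readings of that gene and not separate replicates.

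**Figure D1:**
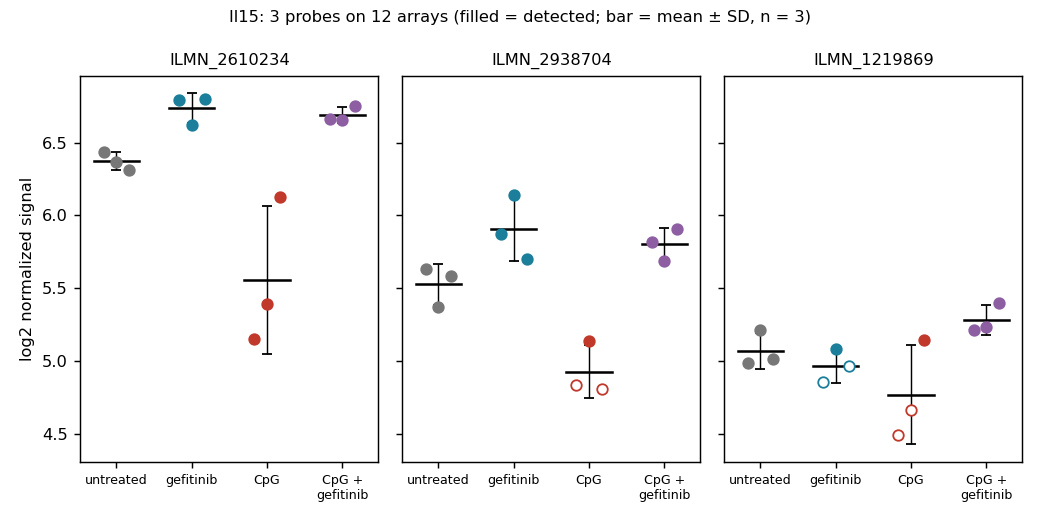
Log2 normalized signal of the 3 Il15 probes on each of 12 arrays, in 4 groups of 3, with bars for the mean and SD and open points where the probe was not detected. In the left and middle panels all 3 CpG points lie below the other 9, while in the right panel the third CpG array (5.15) lies among the untreated arrays.

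The Il15 probes are dim, which sets how large the differences come out. Signals of the brightest ran from 139.08 to 244.99 on the scanner's linear scale, between 1.11 and 1.92 times the array median, and the third probe ran from 117.8 to 140.37. Before any correction, the brightest probe averaged 185 ± 17.6 (SD, n = 3) in untreated cells, 201 ± 37.8 with gefitinib, 144 ± 4.5 with CpG and 199 ± 10.5 with both. The CpG arrays were below all untreated arrays in that raw signal as well. In the authors' deposited quantile-normalized table, which is not background-corrected, 16 was added to each value before log2. There CpG against untreated was -0.28, a 1.21-fold lower level, and CpG with gefitinib against CpG was 0.42, a 1.34-fold higher one. These folds are smaller than those of the values as deposited. The values without background correction, with 16 added likewise, were -0.28 and 0.42, and with an offset of 50 they were -0.51 and 0.74. The direction of both differences was kept by all 3 probes under every alternative run.

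**Figure D2:**
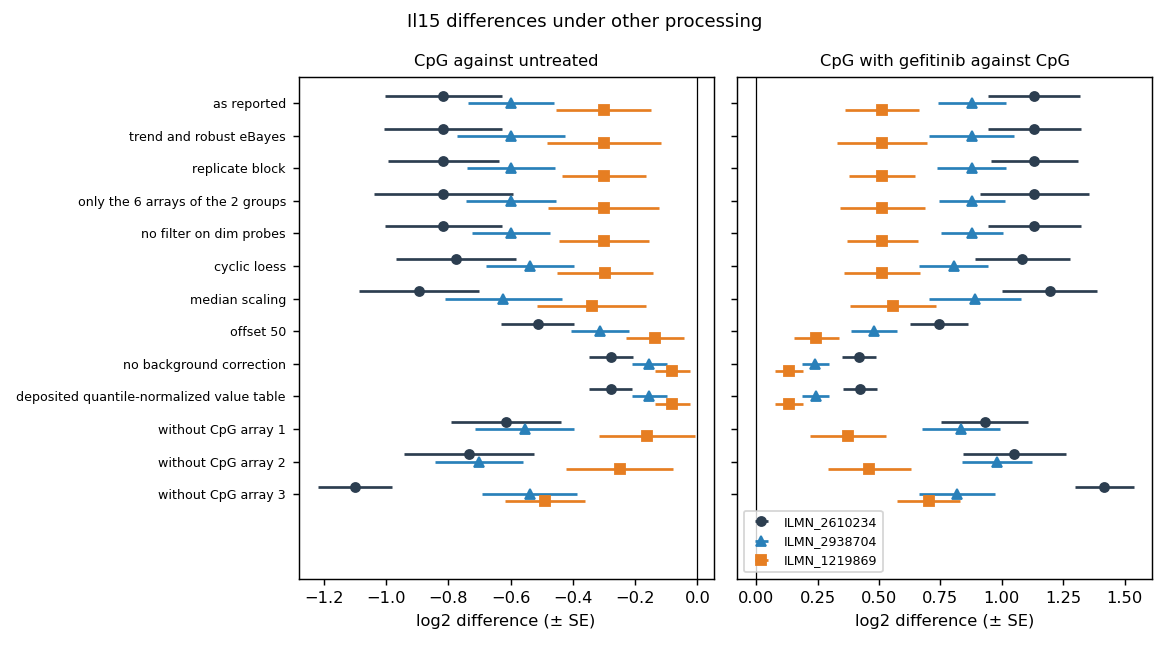
Log2 difference (± SE) of each Il15 probe in CpG against untreated (left) and CpG with gefitinib against CpG (right) as reported and under 12 other settings, including each CpG array left out. All points lie on the same side of 0, and those without background correction lie nearest to it, at -0.28 and 0.42 for the brightest probe.

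Gefitinib alone was a contrast that did not choose Il15, although it shares the untreated arrays with one that did. The brightest probe was 0.36 ± 0.19 above untreated, which did not pass the test (limma adjusted p = 0.264), with a 95% interval of -0.04 to 0.77 that is not adjusted for the number of probes. All 3 gefitinib arrays were above all 3 untreated ones on the log2 scale, but they overlapped in raw signal. The second probe gave 0.38 ± 0.14 (limma adjusted p = 0.117, interval 0.08 to 0.68) and the third -0.10 ± 0.15 (limma adjusted p = 0.742). In this contrast 4.37% of genes were called higher and 2.41% lower.

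Adding CpG to cells that already had gefitinib was tested likewise, on arrays shared with the choosing contrasts. The brightest Il15 probe differed by -0.05 ± 0.19 (limma adjusted p = 1, interval -0.45 to 0.36), and the second by -0.10 ± 0.14 (limma adjusted p = 1, interval -0.40 to 0.19). The third gave 0.31 ± 0.15 (limma adjusted p = 1, interval -0.02 to 0.64). Of all 8101 genes, 0% were called higher and 0% lower here by limma, and neither a trended robust fit nor a replicate block called any. An unadjusted limma p under 0.05 was reached by 229 genes, a smaller share than the 0.05 that such a threshold gives without any change. All 3 intervals hold 0, and none shows that the levels were alike.

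Il15ra, the chain that presents Il15, showed no group that stood apart. Its brightest probe, ILMN_1249759, was detected on all 12 arrays. It read 5.99, 5.50 and 5.12 in untreated cells and 5.48, 5.66 and 5.0 with gefitinib. It read 5.84, 5.42 and 5.21 with CpG and 5.70, 5.79 and 5.30 with both. The 4 groups overlapped, with the third array lowest in each, and the spread within a group (SD 0.26 to 0.43) was larger than any difference between group means.

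Those means were 5.60 with CpG and gefitinib, 5.54 in untreated cells, 5.49 with CpG and 5.38 with gefitinib, and no neighbours in that order differed beyond their spread. Gefitinib against untreated was -0.15 ± 0.24 (limma adjusted p = 0.747, 95% interval -0.66 to 0.35). CpG with gefitinib against gefitinib was 0.21 ± 0.24 (limma adjusted p = 1, interval -0.30 to 0.72). Given as values only, CpG against untreated was -0.05 ± 0.24 and CpG with gefitinib against CpG was 0.10 ± 0.24. A drop of 0.5 log2 units in gefitinib against untreated and a gain of 0.5 in CpG with gefitinib against gefitinib lie inside their intervals. Such changes were thus not excluded by this fit, which did not use the replicate number although the third array was lowest in each group. No interval was computed for the contrasts given as values only.

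The second Il15ra probe, ILMN_1220603, was detected on 7 of 12 arrays, with group means between 4.93 and 5.10. It gave 0.01 ± 0.17 in gefitinib against untreated (limma adjusted p = 0.981) and -0.08 ± 0.17 in CpG with gefitinib against gefitinib (limma adjusted p = 1). In the contrasts that were not tested it gave 0.09 for CpG against untreated and -0.16 for CpG with gefitinib against CpG, of opposite sign to the brighter probe in each. Its correlation with that probe was -0.05 over 12 arrays. The other 2 probes failed the filter: ILMN_1227502 was detected on 2 arrays and ILMN_1236536 on 0, and all their groups overlapped. Of the 4 probes, 3 are annotated to the same RefSeq transcript and the fourth to another, so a change in 1 isoform could be read by some probes only.

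**Figure D3:**
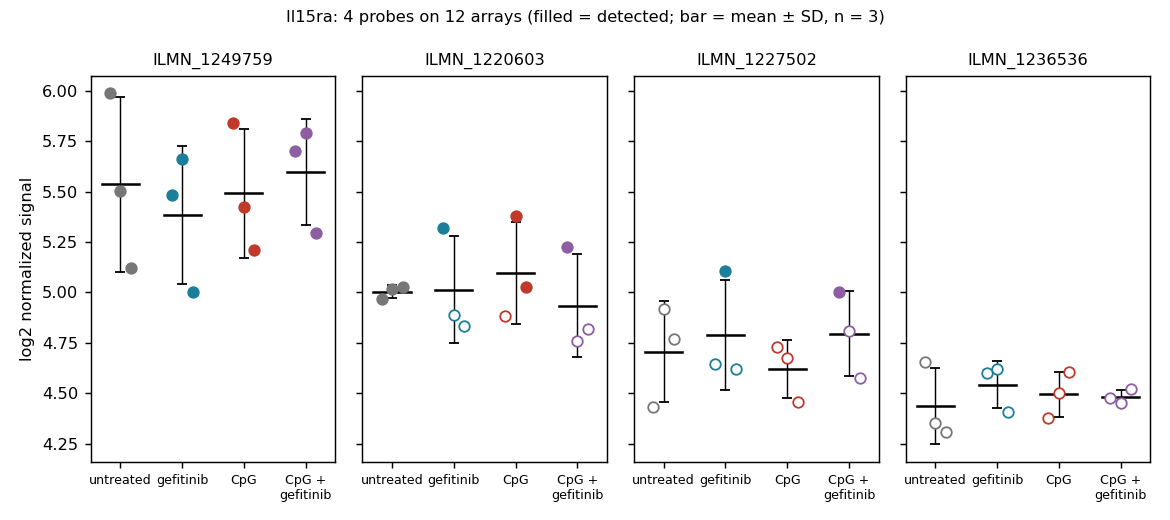
Log2 normalized signal of the 4 Il15ra probes on each of 12 arrays, with bars for the mean and SD of 3 arrays and open points where the probe was not detected. The groups overlap in every panel, and the 2 right-hand probes are detected on 2 and 0 arrays.

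The other cytokines of the common gamma chain family could not be set beside Il15: Il4, Il7, Il9 and Il21 had probes that failed the filter, and Il2 had none. Among the further receptor chains, 2 of 8 passed the filter, Il7r, the receptor chain for Il7, and Il13ra1, and neither was called in any contrast. The beta chain Il2rb, through which Il15 signals, failed the filter, as did Il2ra.

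Beside Il15, 28 other macrophage cytokine genes were listed and 21 passed the filter. With CpG 17 of them rose and 1 fell (limma, adjusted p under 0.05), with a median difference of 1.70 against -0.06 over all genes, of which 9.58% rose and 14.3% fell. With CpG and gefitinib against CpG, 16 fell and 1 rose, with a median of -1.66 against 0.06, and 14.6% of all genes fell and 21.3% rose. Il1b, the fever-inducing cytokine, exceeded its untreated level at least 167-fold with CpG (limma adjusted p = 1.11e-12), being undetected in all groups without CpG and in that with gefitinib too. Tnf rose by 4.17 ± 0.15 with CpG and, with gefitinib added, fell by 4.36 ± 0.15. The receptor antagonist Il1rn rose by 4.93 ± 0.18, and by the brighter probe of the granulocyte factor Csf3 the rise was at least 37.8-fold, while its dimmer probe was at -0.0041 with CpG (limma adjusted p = 0.992).

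The 1 member of that list that moved the way Il15 did was Il16, a chemoattractant for CD4+ cells, named here after its values were seen. It read 7.91, 7.01 and 7.20 in untreated cells and 8.07, 7.88 and 7.47 with gefitinib. It read 7.0, 6.12 and 6.57 with CpG, just below the untreated range, and 8.0, 7.94 and 7.91 with both. It fell with CpG by 0.81 ± 0.24 (limma adjusted p = 0.0286) and was 1.39 ± 0.24 higher with both agents than with CpG (limma adjusted p = 0.000675). The CpG fall lost its call with no filter on dim probes, in a fit of the 6 arrays alone, and without untreated array 1, CpG array 2 or CpG array 3 (adjusted p up to 0.124 over the alternatives), while the second difference kept its call in all of them. Over the 12 arrays, Il15 correlated below 0 with 18 of the 21 genes and above 0 with 3, of which Il16 had the highest r, 0.77. Il15 was chosen because it ran against the other cytokine genes on these arrays, so its choice largely fixed these signs. With gefitinib alone 1 gene of the list rose, Vegfa by 0.90 ± 0.12, and 2 fell, Ltb by 1.22 ± 0.23 and Tnf by 0.61 ± 0.15. Over all genes, 4.37% rose and 2.41% fell in that contrast. The fall of Tnf lost its call without any 1 untreated or gefitinib array, under cyclic loess and under median scaling (adjusted p up to 0.0916).

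**Figure D4:**
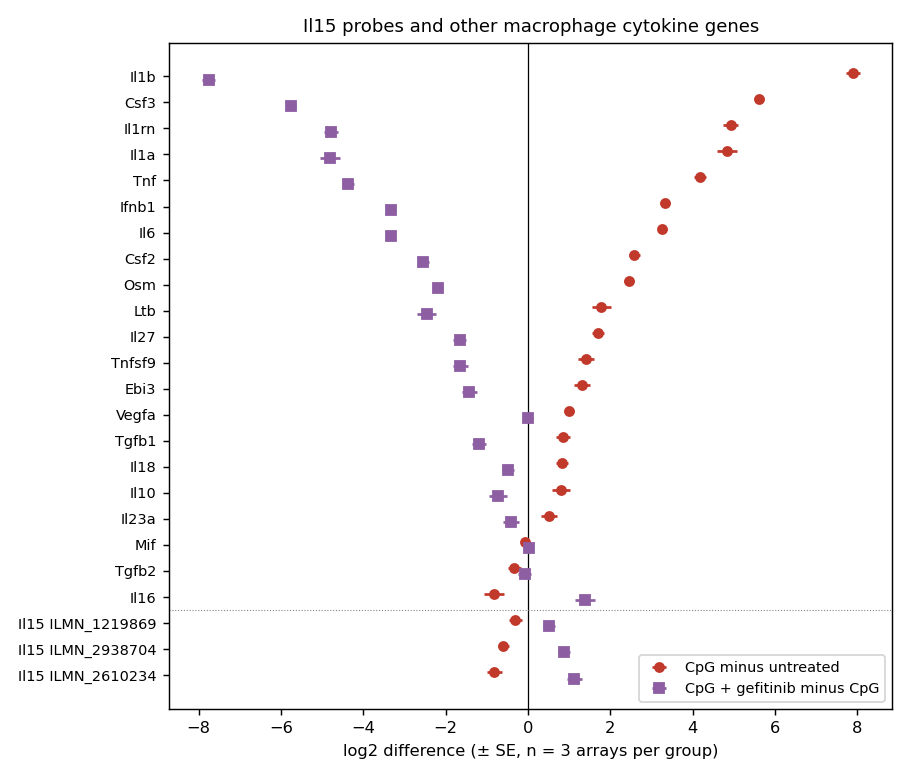
Log2 differences (± SE, 3 arrays per group) of the 3 Il15 probes, below the dotted line, and of 21 other cytokine genes, with circles for CpG minus untreated and squares for CpG with gefitinib minus CpG. For Il15 and Il16 the circles lie below 0 and the squares above it, while for most others the order is the reverse, as for Tnf at 4.17 and -4.36; genes not detected without CpG are plotted at fitted values.

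Genes known to induce Il15 mostly rose with CpG. Of 14 listed, 11 passed the filter. With CpG 8 rose and 1 fell (median 0.75 against -0.06 over all genes), beside 9.58% and 14.3% of all genes. With CpG and gefitinib against CpG, 7 fell and 1 rose (median -0.86), beside 14.6% and 21.3%. Irf7, an interferon regulatory factor, and Ifnb1, interferon beta, were undetected except with CpG alone, where they were at least 7.82-fold and at least 7.40-fold higher than untreated. Irf9, which joins Stat2 in the interferon-activated complex, rose by 1.92 ± 0.11 with CpG and, with gefitinib added, fell by 2.32 ± 0.11. Stat2 rose by 1.46 ± 0.14 and likewise fell by 1.12 ± 0.14.

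Irf1, a factor known to induce Il15, had its own pattern. It read 8.94, 8.92 and 8.90 in untreated cells and 9.47, 9.33 and 9.51 with gefitinib. It read 9.45, 9.03 and 9.49 with CpG and 9.38, 9.34 and 9.31 with both, so every treated array was above every untreated one. It rose by 0.52 ± 0.12 with gefitinib (limma adjusted p = 0.0256) and by 0.40 ± 0.12 with CpG (limma adjusted p = 0.0303), and CpG with gefitinib against CpG was 0.02 ± 0.12 (limma adjusted p = 0.902). Of its 5 probes, 4 passed the filter and 3 were called in each of those first contrasts. The gefitinib call was lost under median scaling and without untreated array 1, 2 or 3 or gefitinib array 1 or 3 (adjusted p up to 0.282), and the CpG call under median scaling, with 6 arrays and without untreated array 1, 2 or 3 or CpG array 1 or 3 (up to 0.273). Ifnar2, a chain of the type I interferon receptor, fell by 0.64 ± 0.13 with CpG and was 0.52 ± 0.13 higher with gefitinib added, the same signs as Il15.

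Of 22 kinases, adaptors and STATs of this receptor family, 16 passed the filter. With CpG 4 rose and 0 fell (median 0.004), beside 9.58% and 14.3% of all genes, and with gefitinib added to CpG 2 were higher and 4 lower (median 0.02), beside 21.3% and 14.6%. Jak1 and Jak3, which the beta and gamma chains use, gave 0.63 ± 0.27 (limma adjusted p = 0.125) and 0.06 ± 0.14 (limma adjusted p = 0.838) with CpG. Without CpG array 3 the Jak1 difference was 0.93 and passed (limma adjusted p = 0.0195). Jak1 gave -0.48 ± 0.27 in CpG with gefitinib against CpG (limma adjusted p = 0.204), which passed with the replicate number as a block (limma adjusted p = 0.019) and, at -0.78, without CpG array 3 (limma adjusted p = 0.031). Stat5a, a transcription factor that these kinases activate, read 6.49, 6.50 and 6.39 in untreated cells, 6.93, 6.63 and 6.77 with gefitinib, 6.01, 6.36 and 6.11 with CpG, and 6.70, 6.59 and 6.67 with both. Its CpG arrays were below all others: the CpG difference of -0.30 ± 0.12 did not pass (limma adjusted p = 0.0867), while CpG with gefitinib exceeded CpG by 0.50 ± 0.12 (limma adjusted p = 0.00529). Its second probe was called in neither, and the CpG difference was -0.40 and passed without CpG array 2 (limma adjusted p = 0.0281). Stat5b failed the filter. Stat3 rose with CpG by 0.78 ± 0.15 and Jak2 by 0.56 ± 0.14, a call that Jak2 lost under median scaling (limma adjusted p = 0.149). The regulatory subunit Pik3r1 was 0.69 ± 0.22 higher with both agents than with CpG, a call lost under 6 of 23 alternatives, among them without CpG array 2 or without CpG with gefitinib array 1 or 3. With gefitinib alone 2 rose, beside 4.37% of all genes. They were Stat2, by 0.56 ± 0.14, and the adaptor Gab2, which no untreated array detected, to at least 1.07-fold the untreated level. Both of those calls were lost under median scaling, without background correction, in the deposited table and without untreated array 1 or 3 or gefitinib array 1 or 2; that of Stat2 was also lost without untreated array 2 and with 6 arrays, and that of Gab2 with offset 50.

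Among 10 inhibitors of this signalling, 7 passed. With CpG 2 rose and 1 fell, beside 9.58% and 14.3% of all genes. With gefitinib added to CpG 2 were higher and 3 lower, beside 21.3% and 14.6%. Socs3, a feedback inhibitor of cytokine receptors, rose by 4.69 ± 0.17 and, with gefitinib added, fell by 4.86 ± 0.17. Cish, a STAT5 target and inhibitor, was detected with CpG alone only, at least 2.00-fold above untreated (limma adjusted p = 0.000548). The STAT inhibitor Pias1 fell with CpG by 0.30 ± 0.10 (limma adjusted p = 0.0454, lost under 14 of 23 alternatives, with 11 of the 12 single arrays left out among them) and was 0.40 ± 0.10 higher with gefitinib added, a call lost under median scaling (limma adjusted p = 0.0978). Pias3 was 0.90 ± 0.22 higher in that second contrast, while its CpG difference of -0.61 did not pass (limma adjusted p = 0.0592). Its other probe past the filter was called in both, at -0.55 with CpG (limma adjusted p = 0.00932) and 0.86 with gefitinib added (limma adjusted p = 0.00025). Socs1 failed the filter.

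Of 14 STAT5-linked targets, 12 passed, and with CpG 5 rose and 1 fell (median 0.37), beside 9.58% and 14.3% of all genes. With gefitinib added to CpG, 1 was higher and 6 lower (median -0.41), beside 21.3% and 14.6%. The 1 that fell with CpG was Bcl2, a survival gene that Il15 is known to raise in lymphocytes. It read 6.36, 6.29 and 5.95 untreated, 6.14, 6.11 and 6.23 with gefitinib, 5.32, 5.71 and 5.52 with CpG, and 6.27, 6.38 and 6.54 with both, so the CpG arrays lay below all others. Its fall with CpG was 0.68 ± 0.14 (limma adjusted p = 0.00255), and it was 0.88 ± 0.14 higher with gefitinib added (limma adjusted p = 0.000243). Of its 8 probes, 5 passed the filter and 2 were called in each of these contrasts, and the dimmest gave 0.25 and -0.29, of opposite sign and not called. Its relatives went the other way: Bcl2l1, a survival gene, rose by 1.16 ± 0.15 with CpG and the pro-death gene Bcl2l11 by 2.54 ± 0.14. Bcl2l11 also rose with gefitinib alone, by 0.75 ± 0.14, and Ccnd3, a cyclin, fell there by 0.40 ± 0.11 (limma adjusted p = 0.0423), a call lost without any 1 array except CpG array 2 or 3. The Bcl2l11 rise with gefitinib was not called by the other 2 of its 3 probes past the filter (0.19 and 0.06) or under median scaling. Osm, a cytokine that STAT5 induces, rose with CpG by 2.45 ± 0.12.

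Of 6 genes of processing and shedding, 4 passed. With CpG 3 rose, beside 9.58% of all genes, and with gefitinib added to CpG all 4 were lower, beside 14.6%. The call of Rhbdf1 in the latter (limma adjusted p = 0.0488) was lost under 14 of 23 alternatives, with 11 of the 12 single arrays left out among them. Adam17, a surface protease known to release Il15ra, read 9.94, 9.69 and 9.75 untreated, 9.70, 9.64 and 9.65 with gefitinib, 10.12, 10.33 and 10.42 with CpG, and 9.70, 9.47 and 9.76 with both. The CpG arrays lay above all others. It rose with CpG by 0.49 ± 0.12 (limma adjusted p = 0.00869, but 0.102 under median scaling) and, with gefitinib added, fell by 0.65 ± 0.12 (limma adjusted p = 0.00093). Its partner Rhbdf2 rose by 0.84 ± 0.11, and Furin, a convertase that matures such proteases, by 1.07 ± 0.13.

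Of all 50 such genes that passed, out of 75 listed, 20 rose and 3 fell with CpG (median 0.17 against -0.06 over all genes), beside 9.58% and 14.3% of all genes. With gefitinib added to CpG 6 were higher and 22 lower (median -0.35 against 0.06), beside 21.3% and 14.6%. With gefitinib alone 4 rose and 1 fell, beside 4.37% and 2.41% of all genes. These counts became 0 and 0 under median scaling. They became 1 to 2 rising without untreated array 1, 2 or 3 or gefitinib array 1 or 2, and 0 falling without any 1 array except CpG array 2 or 3. By limma 0 were called between CpG with gefitinib and gefitinib. The 2 contrasts with the CpG group share its arrays, so their opposite signs are not separate observations.

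**Figure D5:**
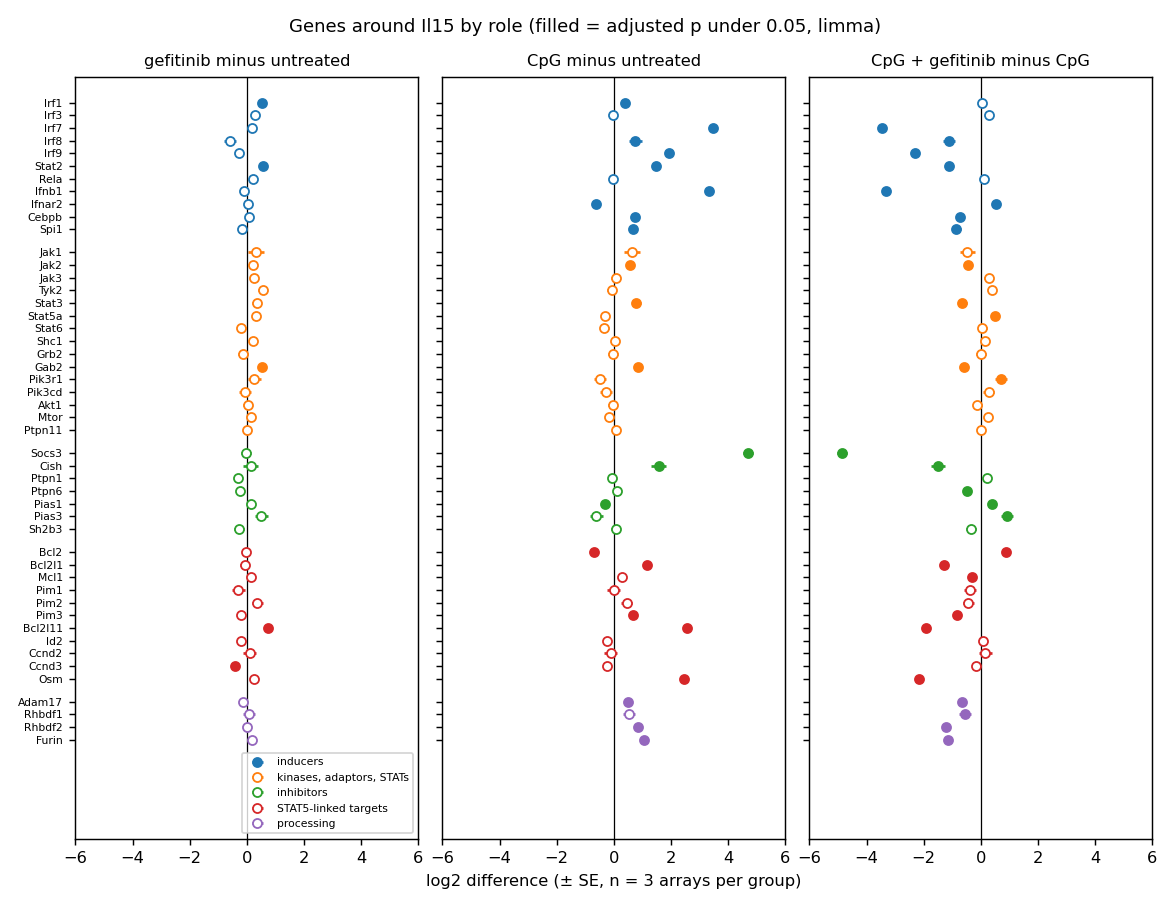
Log2 differences (± SE, 3 arrays per group) of the listed genes around Il15 in 3 contrasts, coloured by role, filled where the limma adjusted p was under 0.05. Socs3 lies at 4.69 with CpG and -4.86 with gefitinib added. Of the points filled in both of those panels, Bcl2, Pias1 and Ifnar2 lie on the same sides as Il15. Irf1 is filled in the left and middle panels only.

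Genes most like Il15 were ranked by Pearson's r over the 12 arrays among 2453 genes with an SD of at least 0.3. Spsb3 (r = 0.97), F8a (0.97), Fancd2 (0.97), Accs (0.96) and Kif22 (0.96) stood highest. Fancd2 acts in DNA crosslink repair and Kif22 is a chromosome-binding kinesin. Mean levels of Fancd2 were 7.12 untreated, 7.36 with gefitinib, 6.46 with CpG and 7.28 with both, the same order as Il15. The lowest r belonged to Syt16 (-0.96), Kdm6b (-0.96), an H3K27 demethylase, and Pla2g5 (-0.94), a secreted phospholipase. Kdm6b was at 8.33 with CpG and between 6.34 and 6.80 elsewhere.

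For Il15ra the highest were Zfp367 (0.83), Ube2j1 (0.81), Tstd2 (0.81), Polb (0.80) and Fam120b (0.79), and the lowest Tmco3 (-0.90), Vps37a (-0.74) and Zbtb3 (-0.73). The r between the brightest probes of Il15 and Il15ra was -0.18. All of these are descriptions over arrays that share their groups.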

How the data were processed

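Total RNA of RAW264.7 cells was hybridised to Illumina bead arrays, 12 in all, of 3 per group. The submitters' processing notes name GenomeStudio 2010.2 for the export. Deposited bead signals are intensity values on a linear scale, not normalized per the file headers. Each comes with a deposited detection p-value, per the file headers. A second table deposited by the authors holds intensity values that are quantile-normalized across arrays, as its shared quantiles show (medians of 120.007 to 120.064, no centring). It served as an alternative, with 16 added to each value before log2.

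The signals were turned into log2 values by neqc of limma 3.58.1 under R 4.3.3, which applies a normexp correction using the detection p-values, an offset of 16 and quantile scaling. The 11977 probes that at least 3 arrays detected (detection p below 0.05) were kept. Of all probes 23978 had 1 symbol, 0 had several and 1719 were not listed in the annotation. The kept probe with the highest mean stood for a gene in lists and counts (8101 genes). All 12 arrays were fitted together by lmFit and eBayes, with 8 residual degrees of freedom, 5.28 from the prior and a median SE of 0.145, and with Benjamini-Hochberg adjustment over all kept probes. "At least" folds floor the dimmer group, array by array, at the dimmest signal among detected probes. The number of arrays limits the precision.

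The members and lists were chosen with earlier results of these data known. Named from each list were up to 4 genes with the largest called difference per contrast, plus Irf1, Stat5a, Stat5b, Jak1, Jak3, Il2rb, Adam17, Cish and Socs1, and the 5 highest and 3 lowest in likeness. Il16, Bcl2, Ifnar2, Il7r and Il13ra1 were named after their values were seen. Same-numbered arrays deviated together, with every r over 0.1 in all 3 pairs, between CpG and CpG with gefitinib (0.12 to 0.34) and between gefitinib and CpG with gefitinib (0.23 to 0.28), by a check of the data and not the labels; the numbers were not taken as pairs elsewhere (lowest r -0.15 for untreated against CpG). The procedure was checked on simulated data with independent noise, which leaves out shared deviations of same-numbered arrays. The pass mark for recovery was set on larger changes than those of the members. Alternatives covered background correction, scaling, filter, fit, probe and each array left out.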

Additional observations from a re-analysis of the deposited data

Results flagged for a closer look

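For 21 of 37 genes named from the lists, the effect of CpG differed between cells with and without gefitinib (limma interaction, adjusted p under 0.05). The interaction was below 0 for 20 of them and above 0 for Bcl2, at 0.92. Over the 8101 genes, 5.73% were called above 0 and 5.59% below. Most of the named genes were picked for large differences in contrasts that share the CpG arrays, so their choice largely fixes this count and its signs. The members were not tested, since their choice used these contrasts. Among cytokines the interaction, in log2 units, was -7.78 for Il1b, -5.72 for Csf3, -4.79 for Il1a, -4.78 for Il1rn, -3.75 for Tnf, -2.42 for Osm, -1.25 for Ltb and -0.90 for Vegfa. Among inducers of Il15 it was -3.64 for Irf7, -3.24 for Ifnb1, -2.04 for Irf9 and -1.68 for Stat2. Among signalling genes and targets it was -4.83 for Socs3, -2.68 for Bcl2l11, -1.63 for Cish, -1.22 for Bcl2l1, -1.13 for Gab2 and -0.99 for Stat3. Among processing genes it was -1.33 for Furin and -1.24 for Rhbdf2. Values for genes not detected without CpG are fitted and are no bound.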

How the results depend on the processing

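Of the values recomputed under alternatives, 2220 were marked the same, 56 moved in size, 103 lost and 6 gained a call, and 19 changed sign. Named genes entered only in contrasts where they were called, apart from Jak1, Jak3 and Stat5a in those with the CpG group. Most could therefore lose a call but not gain one, which largely fixes the balance of lost and gained calls. Tested values were marked by direction and call alone, so those marked the same could differ in size. The CpG difference of Irf7 ran from 1.44 to 3.54 with its call kept. Size was judged only for list counts, likeness and the untested contrasts of the members. The brightest Il15 probe's CpG difference became -0.28 in the deposited table, -0.28 without background correction, -0.51 with offset 50 and -0.30 by probe ILMN_1219869. Its difference between CpG with gefitinib and CpG became 0.42, 0.42, 0.74 and 0.51 in that order. Leaving out 1 array at a time gave -1.10 (without the third CpG array) to -0.61 (without the first) and 0.93 to 1.42. For gefitinib against untreated that range was 0.33 to 0.42, with limma adjusted p from 0.0581 to 0.477, and ILMN_1219869 gave -0.10; for CpG with gefitinib against gefitinib, where the range was -0.11 to -0.02, that probe gave 0.31. ILMN_2938704 ranged from -0.20 to 0.015 in the latter contrast. Il15ra by ILMN_1220603 gave 0.011 and -0.079 in the tested contrasts. Without 1 array, its brightest probe ranged from -0.36 to 0.070 in gefitinib against untreated, and ILMN_1220603 from -0.14 to 0.10 there and -0.22 to 0.074 in CpG with gefitinib against gefitinib. Untreated arrays 1 and 3 set the first of these ranges.

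Calls among the 50 genes around Il15 with gefitinib alone fell to 0 higher and 0 lower under median scaling, and to 0 lower with 6 arrays or the dimmest probe of each gene; without 1 array they were 1 to 5 higher and 0 to 1 lower. With that dimmest probe, 3 were higher in CpG with gefitinib against CpG. For the other cytokines, 1 fell with gefitinib under cyclic loess or median scaling (1 to 2 without 1 array). Requiring detection on all 12 arrays left 9 higher with CpG and 8 lower with gefitinib added, because fewer genes are tested. The 1 that fell with CpG became 0 with no filter and with 6 arrays (0 to 1 without 1 array). By the dimmest kept probe, Csf3 gave -0.0041 with CpG, Stat5a 0.040, and Bcl2 0.25 with CpG and -0.29 with gefitinib added. Jak3 gave -0.37 and -0.043 there, and -0.091 to 0.21 with CpG without 1 array. The highest r to Il15ra became 0.91 with no minimum SD. Where no value or construction shows a cause, the cause was not tested.

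With a replicate block, Jak1 was called with CpG (0.63, limma adjusted p = 0.00665) and with gefitinib added to CpG (-0.48, limma adjusted p = 0.019). No other recomputed value changed its call, and no list count moved by over 1.5 times. Most differences of named genes that were not called, such as that of Pias3 with CpG, were not recomputed. A call gained there under the block would not show. Over all genes, calls went from 549 to 851 with gefitinib, 1936 to 2184 with CpG, 2909 to 3186 with gefitinib added to CpG and 0 to 0 in CpG with gefitinib against gefitinib; the brightest Il15 probe kept 0.36 with gefitinib (limma adjusted p = 0.219). Median scaling moved the median of all probes with CpG to -0.10. Signals of Il15 and Il15ra near background limit all sizes given.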
